A study of Mus musculus with 12 samples.

Results

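Open-chromatin peaks were read in mouse T helper cells of the homeostatic Th17 (Th17Hom) type. Of 222105 peaks, 1182 met a rule for lower accessibility in wild-type cells treated with dexamethasone (Dex) than in untreated ones. They were chosen on the wild-type libraries alone. Levels are in CPM, the reads of a peak for every 1000000 reads counted in its library. A peak was kept when its mean over the WT control libraries was at least 3 CPM, its mean over the WT Dex libraries was at most 0.67 times that, and the highest WT Dex library lay below the lowest WT control library. Of the 58502 peaks past the 3 CPM minimum, 2.02% met the rule. The WT values therefore describe how the peaks were chosen and are given with no test. The 6 libraries of the knockout were not used to choose them, and the Dex contrast in those cells is the one that was tested.

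The data were ATAC-seq libraries in 4 groups of 3. WT Dex and WT control cells came from C57/B6 mice with an intact glucocorticoid receptor (GR). GR cKO Dex and GR cKO control cells came from mice with a conditional knockout of the receptor. In all 4 groups naive CD4+ T cells, originally from spleen and draining lymph nodes, were cultured into Th17Hom cells and then kept for 2 days with Dex or, in the controls, without it. Each library was made from 6000 sorted cells. The Cre driver, the deleted exons and the share of cells that kept the receptor are not stated in the sources used here, and the labels do not say whether replicates were separate animals or cultures. P-values therefore measure the spread between these samples, which may be technical. In bulk libraries, fewer cells with an open site and less opening per cell cannot be told apart.

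Dex is a synthetic glucocorticoid. It binds the glucocorticoid receptor, a transcription factor encoded by Nr3c1 that moves to the nucleus, opens chromatin at its binding sites and also lowers the activity of many inflammatory genes, among them targets of AP-1 and NF-kB. ATAC-seq uses the Tn5 transposase, which inserts into DNA that is free of nucleosomes, so a count reports how open a site is and not how much RNA a gene makes. Th17 cells are helper T cells defined by the nuclear receptors ROR-gamma-t and ROR-alpha and by IL-17, and IL-23 signalling through Il23r stabilises their inflammatory form.

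Library totals ran from 12988437 to 25081591 counts over all peaks. The T cell label was checked at the RefSeq promoter windows that the table used holds. Of 10 T cell genes 8 had a window, and 7 of them (Cd3e, Cd3g, Lck, Zap70, Bcl11b, Tcf7 and Cd5) held a promoter peak of at least 10 CPM in WT control. Of 5 Th17 genes with a window, Ccr6 and Il17f did. Among markers of other cells, this level was reached by 0 of 9 B cell genes, 1 of 10 CD8 T and NK cell genes (Prf1), 2 of 11 myeloid and dendritic genes (Cebpb and Itgax) and 0 of 8 erythroid and stromal genes. Of those 9 B cell genes 8 had no promoter peak of 3 CPM, Cd79a and Pax5 among them. The same held for 3 of the 5 Th17 genes (Rora, Il17a and Il23r). The strongest peak within Nr3c1 lay between 59.3 and 68.5 CPM in cKO Dex libraries, against 65.6 to 75.8 CPM in WT Dex libraries, and between 55.8 and 60.7 CPM in cKO control libraries, against 60.7 to 71.4 CPM in WT control libraries. Accessibility of that peak does not show whether the deleted part was lost, so it does not check the genotype labels. None of the 25 peaks assigned to Nr3c1 was among the weakened peaks.

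Of the 1182 weakened peaks 22 overlapped a promoter window, defined as the 250 bases before and 50 bases after a RefSeq transcript start. The table of windows is not complete: 17492 of 21900 protein-coding genes (79.9%) have one, so a peak at an unlisted start counts here as away from promoters, in the weakened peaks and in the others alike. The windows of 3 protein-coding genes are printed here to show what such a start looks like. Trim15, which encodes a ubiquitin ligase of the TRIM family, carried matches to 3 of the motifs searched, Retreg1, a receptor for the selective autophagy of the endoplasmic reticulum, carried an AP-1 match close to the start, and Pde1b, a phosphodiesterase that breaks down cyclic nucleotides, was the protein-coding gene with the strongest weakened promoter peak and carried none. Sequences are from RefSeq on GRCm38.p6, the build called mm10, and run 5′ to 3′ on the strand of the gene. Capitals mark motif matches on either strand.
Trim15, chr17:36867138-36867437, minus strand: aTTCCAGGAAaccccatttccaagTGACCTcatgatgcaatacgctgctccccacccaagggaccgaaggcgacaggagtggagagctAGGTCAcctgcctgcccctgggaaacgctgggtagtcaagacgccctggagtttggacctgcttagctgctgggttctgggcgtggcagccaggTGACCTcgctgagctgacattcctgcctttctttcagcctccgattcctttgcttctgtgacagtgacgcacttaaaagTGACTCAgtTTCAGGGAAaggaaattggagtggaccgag
Retreg1, chr15:25940452-25940751, plus strand: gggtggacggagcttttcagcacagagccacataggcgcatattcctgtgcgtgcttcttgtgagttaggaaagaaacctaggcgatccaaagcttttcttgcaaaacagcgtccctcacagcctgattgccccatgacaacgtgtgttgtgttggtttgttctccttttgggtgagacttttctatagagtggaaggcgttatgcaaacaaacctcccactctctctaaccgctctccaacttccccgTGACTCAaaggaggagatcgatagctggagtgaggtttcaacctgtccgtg
Pde1b, chr15:103506876-103507175, plus strand: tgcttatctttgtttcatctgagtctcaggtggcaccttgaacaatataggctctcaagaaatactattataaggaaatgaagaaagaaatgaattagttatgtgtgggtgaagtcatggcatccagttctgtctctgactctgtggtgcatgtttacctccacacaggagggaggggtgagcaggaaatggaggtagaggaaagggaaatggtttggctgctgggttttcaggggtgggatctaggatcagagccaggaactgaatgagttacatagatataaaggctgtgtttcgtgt

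In the Trim15 window the capitals hold an AP-1 match (TGANTCA), ROR matches (AGGTCA on one of the strands) and STAT matches (TTCNNNGAA). The weakened peak at Trim15 covered all 300 bases of the window and that at Pde1b covered 249 of them. The Trim15 peak stood at 1.97, 2.01 and 2.11 CPM in WT Dex libraries, against 3.62, 3.45 and 3.37 CPM in WT control libraries. It stood at 2.91, 2.70 and 3.59 CPM in cKO Dex libraries, against 4.03, 3.61 and 3.31 CPM in cKO control libraries. The cKO groups overlapped, with a log2 difference of -0.21 ± 0.22 (SE, n = 3 each). The Retreg1 peak stood at 2.50, 1.03 and 2.11 CPM in WT Dex libraries, against 2.77, 3.74 and 2.52 CPM in WT control libraries, and the lowest control library exceeded the highest Dex library only narrowly. It stood at 3.67, 2.58 and 3.20 CPM in cKO Dex libraries, against 2.56, 3.40 and 3.38 CPM in cKO control libraries, so those groups overlapped. The Pde1b peak stood at 4.30, 4.02 and 3.71 CPM in WT Dex libraries, against 7.47, 6.48 and 5.53 CPM in WT control libraries. In the cKO Dex libraries it stood at 4.74, 4.40 and 3.87 CPM, against 7.23, 4.08 and 4.60 CPM in cKO control libraries, where 1 control library stood well above the others.

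Motifs were searched on both strands of all 32851 promoter windows. A site was counted as present in a promoter peak when a window that the peak overlapped held a match. Such a match could lie outside the peak itself. AP-1 sites (TGANTCA), bound by Fos and Jun dimers, were so counted in 4 of the 22 weakened promoter peaks (18.2%). The shares were 6.73% of the 10299 other promoter peaks past 3 CPM and 7.81% of all windows. STAT sites (TTCNNNGAA) were present in 5 (22.7%), against 7.73% of other promoter peaks and 8.30% of all windows. The STAT matches in the windows of Gm29946, Gfi1b and Ptprj lay outside the weakened peaks, which covered 46, 75 and 158 bases of those windows. The ROR site AGGTCA was present in 6 (27.3%), against 13.7% of other promoter peaks and 16.3% of all windows. The ETS motif CCGGAAG and the E-box CACGTG were present in 0, against 18.9% and 11.7% of other promoter peaks and 8.86% and 7.15% of all windows. NF-kB sites were present in 2 (9.09%), against 30.7% of other promoter peaks and 20.7% of all windows. Those NF-kB matches, in the windows of 1700126H18Rik and Gm52407, lay outside the weakened peaks. RUNX sites (TGTGGTT) were present in 1 (4.55%), against 4.79% and 5.27%. The glucocorticoid response element was present in 0, against 0.369% and 0.475%. Base composition differed between the sets and bears on these shares: the median GC content was 50% over the 25 windows in weakened peaks, against 61.3% over the 13741 windows in all peaks past 3 CPM, and the median number of CpG was 4, against 21. With 22 peaks these shares are descriptions, and a match is not a binding site.

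The weakened peaks lay away from promoters. Promoter windows were touched by 1.86% of them (exact 95% interval 1.17% to 2.80%, which covers counting error only), against 17.97% of the other peaks past 3 CPM. Part of this gap goes with level, since the weakened peaks were weak: their median in WT control was 4.44 CPM (quartiles 3.52 and 6.30, highest 28.6), against 8.11 CPM over all peaks past the minimum. Within bands of the mean level over the cKO libraries, the promoter share of weakened peaks was 1.77%, against 5.50% of other peaks, at 3 to 6 CPM, and 0.446%, against 11.5%, at 6 to 12 CPM. Above 12 CPM, where 42 weakened peaks lay, it was 4.76%, against 34.9%. The weakened peaks were also narrower, with a median width of 544.5 bases, against 840 bases over all peaks past the minimum, and farther from the nearest listed transcript start, with a median of 19.6 kb, against 11.98 kb. At 3 to 6 CPM in cKO these gaps were smaller: the median width was 531 bases, against 606 bases of other peaks, and the median distance 19.0 kb, against 15.1 kb.

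**Figure D1:**
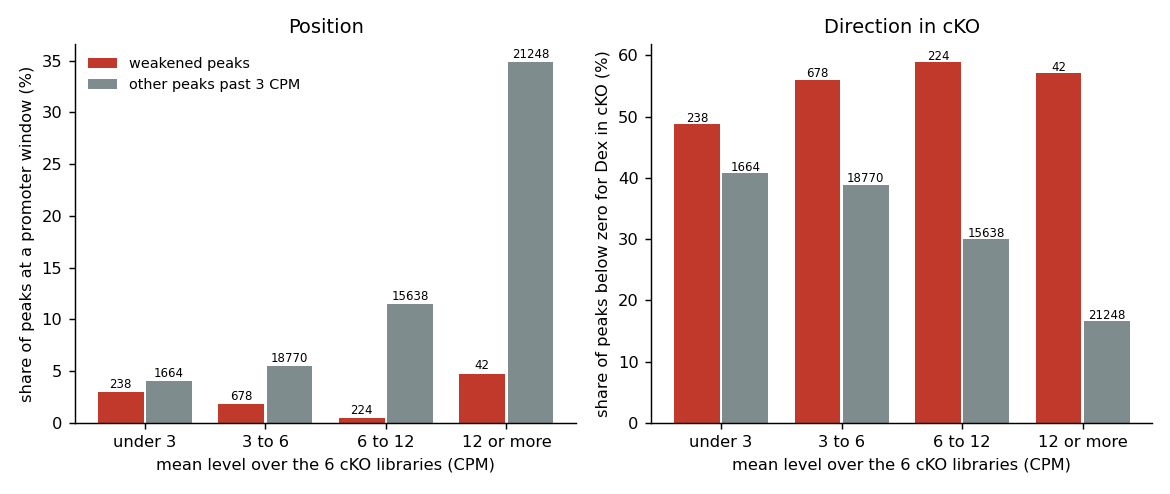
Left, share of peaks at a promoter window in percent; right, share of peaks with a negative log2 for Dex in cKO in percent. Both are split by the mean level over the 6 cKO libraries in CPM, red for weakened peaks and grey for other peaks past 3 CPM in WT control, with the number of peaks above each bar. The red bars at 3 to 6 CPM stand at 1.77% and 56.0%, against grey bars at 5.50% and 38.9%.

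Within genes lay 56.9% of the weakened peaks, against 60.9% of all peaks past the minimum. Another 32.4%, against 30.5%, lay outside genes but within 50 kb of one, and 10.7%, against 8.53%, lay farther out. By chromosome, the weakened share of the peaks past the minimum ran from 1.23% on X to 2.38% on chromosome 14. A gene was assigned to 1055 of the 1182 peaks, by the span that held the peak centre or the nearest span within 50 kb, and such a gene need not be the one the site regulates. These peaks fell on 919 genes, of which 812 had 1 weakened peak, 86 had 2 and 21 had 3 or more. Only 82 peaks lay within 10 kb of another weakened peak.

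At the threshold of 3 CPM, the peak at Optn averaged 3.001 CPM in WT control and was kept, while those at Pnkd and Pde7b averaged 2.998 and 2.998 CPM and were not. At the ratio limit the peaks at Zhx2 and at one site in Msi2 had ratios of 0.6698 and 0.66998 and were kept, and those at Fry and Zfp469, with ratios of 0.670036 and 0.670037, were not. By the gap between the lowest WT control and the highest WT Dex library, peaks at Trib1 (0.000334 CPM) and Adk (0.000817 CPM) were just inside, and peaks at Nsun7 (-0.00228 CPM) and Ube2ql1 (-0.000306 CPM) just outside.

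The question put to the cKO was whether these sites are also lower with Dex when the receptor is targeted. The summed level of the 1182 peaks was 5793, 5730 and 5592 CPM in cKO Dex libraries, against 6020, 6107 and 5993 CPM in cKO control libraries. Every cKO Dex library lay below every cKO control library, and the group means differed by -5.55%. In the libraries that chose the peaks the sums were 3860, 3948 and 4100 CPM for WT Dex and 6527, 6472 and 6435 CPM for WT control, a difference of -38.7% that the rule made large. Library sizes were also scaled by TMM, which trims peaks with extreme ratios between libraries before it sets the scale. The difference in cKO was then -1.98%, against -36.5% in WT. On that scale the cKO groups overlapped: 5910, 5940 and 5266 CPM in cKO Dex, against 5642, 6098 and 5722 CPM in cKO control. Other peaks at 3 to 6 CPM in WT control, 21077 in number, differed by 0.0112% in cKO and by -1.95% in WT on the scale of library totals. The share of counts in the strongest 10% of peaks ran from 58.1% to 61.6% in cKO Dex libraries, against 57.9% to 60.4% in cKO control libraries. Its part in the summed levels was not tested.

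**Figure D2:**
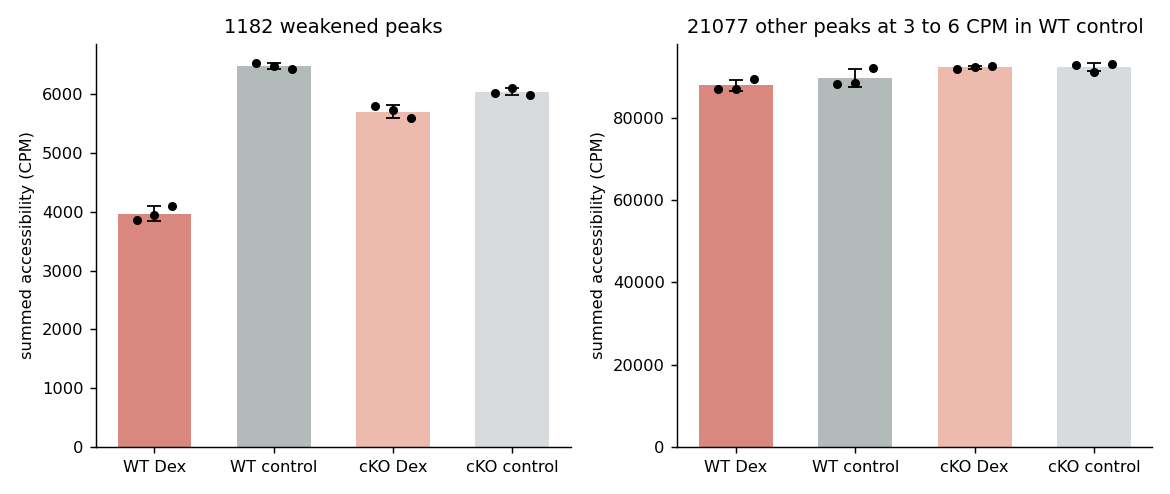
Summed accessibility in CPM by group: left, the 1182 weakened peaks; right, 21077 other peaks at 3 to 6 CPM in WT control. Bars are means, error bars SD and points libraries (n = 3). The cKO Dex points lie between 5592 and 5793 CPM and the cKO control points between 5993 and 6107 CPM; the WT bars were used to choose the peaks.

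All 1182 peaks passed the low-count filter and were tested in edgeR's quasi-likelihood fit over 202587 peaks. That fit called 6 of all tested peaks for Dex in cKO (0.00296% in either direction, 0 lower) at a Benjamini-Hochberg adjusted p under 0.05. None of the weakened peaks was called, and the smallest adjusted p among them was 0.837. DESeq2 also called 0 of them. Without cKO Dex replicate 3 the edgeR fit called 314 peaks over the whole table, and still none of the 1182. At an unadjusted p under 0.05, edgeR put 41 of them lower (3.47%) and 21 higher (1.78%), against 3.23% lower and 2.61% higher of all tested peaks. Of the other peaks past 3 CPM, 0.85% were lower and 5.55% higher at that level. DESeq2 put 37 weakened peaks past it in either direction. The highest cKO Dex library lay below the lowest cKO control library at 112 weakened peaks (9.48%), against 6.57% of all tested peaks. The reverse order held at 34 (2.88%), against 4.29%. The shares of all tested peaks are dominated by peaks weaker than these: among the other peaks past 3 CPM, 3.76% had all cKO Dex libraries below all cKO control libraries and 7.56% had them above.

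The median log2 difference of the weakened peaks for Dex in cKO was -0.03 (quartiles -0.16 and 0.11), against 0.08 for the other peaks past 3 CPM and -0.00 for all tested peaks. It was negative at 652 of the 1182 (55.2%), against 28.3% of the other peaks past 3 CPM and 50.5% of all tested peaks. Its sign depended on single libraries: the median was 0.03 without cKO Dex replicate 3 and 0.00 without cKO control replicate 2. The median of all peaks past 3 CPM was 0.15 and 0.11 in those fits. The difference between the medians, -0.104 over all libraries, ran from -0.115 to -0.089 with 1 cKO library left out. By level, 48.7% of the weakened peaks under 3 CPM in cKO were negative, against 40.7% of other peaks. At 3 to 6 CPM the share was 56.0%, against 38.9%, at 6 to 12 CPM 58.9%, against 30.0%, and above 12 CPM 57.1%, against 16.6%. Away from promoter windows it was 55.3% of 1160 weakened peaks, against 30.9% of 47021 others. The medians were -0.04, against 0.06, at 3 to 6 CPM and -0.02, against 0.08, at 6 to 12 CPM.

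**Figure D3:**
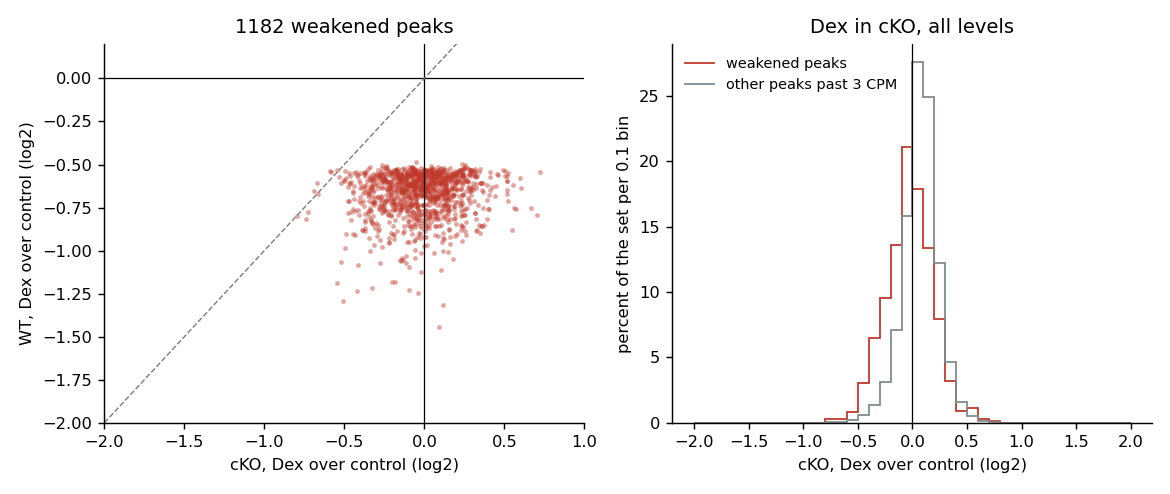
Left, each of the 1182 weakened peaks by its log2 of Dex over control in cKO (x) and in WT (y, used by the rule), with the dashed line marking equal values. Right, share of the set per 0.1 bin of the cKO log2, red for weakened peaks (median -0.03) and grey for other peaks past 3 CPM (median 0.08).

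Applied to the cKO libraries, the same rule kept 256 of the 60276 peaks with at least 3 CPM in cKO control (0.425%). Among the 967 weakened peaks past that level in cKO control 4 met it (0.414%). These 4 shared peaks are 0.338% of the WT list and 1.56% of the cKO list. The cKO list depended on single libraries: it held 1086 peaks without cKO Dex replicate 3 and 919 without cKO control replicate 2, and with any 1 cKO library left out it shared 9 to 29 peaks with the WT list. The 4 shared peaks lay within Ttc39c, St3gal3, a sialyltransferase of the Golgi, Morn1, and Dnah6, a dynein heavy chain of cilia. They are named because their count is small, after their values were seen. The peak in Morn1 (chr4:155098194-155098920) stood at 3.07, 2.58 and 2.75 CPM in cKO Dex libraries, against 4.87, 3.66 and 5.47 CPM in cKO control libraries. It stood at 2.32, 2.22 and 2.28 CPM in WT Dex libraries, against 4.31, 4.12 and 2.97 CPM in WT control libraries. Neither pair of groups overlapped, which the rule had required of these 4 peaks in both genotypes. The Morn1 log2 in cKO of -0.67 ± 0.22 had the smallest unadjusted p of the weakened peaks (0.00312 in edgeR, adjusted p 0.837). The peak in Dnah6 (chr6:73018682-73019172) had the lowest log2 of these 4 in cKO, -0.79 ± 0.26.

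In summed level the cKO libraries of both treatments lay between WT Dex and WT control. The cKO Dex mean was above the WT Dex mean at 1164 peaks (98.5%), and the cKO control mean was above it at 1162 (98.3%). The lowest cKO Dex library exceeded the highest WT Dex library at 729 peaks (61.7%). All cKO control libraries lay below all WT control libraries at 166 peaks (14.0%) and above them at 29 (2.45%). Since the rule picked peaks that were high in WT control and low in WT Dex, these orders follow in part from the choice and carry no test.

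The 8 peaks with the lowest WT ratio stood at means of 1.15 to 5.12 CPM in WT Dex. In WT control their means ran from 3.12 CPM at Ly86 to 12.4 CPM at Thy1. The lowest lay within Zfyve28 (chr5:34221100-34221449), whose product is an endosomal regulator of growth factor receptor signalling. It stood at 1.28, 0.980 and 1.20 CPM in WT Dex libraries, against 3.77, 3.26 and 2.81 CPM in WT control libraries, a ratio of 0.351. It stood at 3.15, 1.83 and 2.08 CPM in cKO Dex libraries, against 1.66, 2.35 and 2.91 CPM in cKO control libraries. The cKO groups overlapped, with a log2 of 0.09 ± 0.27 (SE, n = 3 each). A site on chromosome 11 with no gene within 50 kb (chr11:85977822-85978205) stood at 1.63, 1.70 and 1.65 CPM in WT Dex libraries, against 4.70, 4.97 and 3.33 CPM in WT control libraries. In cKO it stood at 2.63, 4.07 and 2.36 CPM with Dex, against 3.01, 3.71 and 1.96 CPM in control.

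Hilpda encodes an inhibitor of lipolysis on lipid droplets that is induced by hypoxia. The peak 5554 bases outside it (chr6:29266612-29267256) stood at 2.09, 1.91 and 1.77 CPM in WT Dex libraries, against 4.62, 5.06 and 4.35 CPM in WT control libraries. It stood at 4.55, 5.57 and 5.05 CPM in cKO Dex libraries, against 4.03, 5.49 and 7.30 CPM in cKO control libraries, and so overlapped there. The peak within Sorcs2, a sorting receptor of the sortilin family (chr5:36113597-36114391), stood at 1.80, 2.32 and 2.68 CPM in WT Dex libraries, against 5.70, 4.73 and 6.02 CPM in WT control libraries. It stood at 5.14, 4.90 and 4.38 CPM in cKO Dex libraries, against 6.79, 5.91 and 6.22 CPM in cKO control libraries. There the cKO groups did not overlap either, with a log2 of -0.33 ± 0.18 and an unadjusted p of 0.0778 in edgeR. The others were peaks within Galnt14, a transferase that starts mucin-type O-glycans, Exoc6b, a subunit of the exocyst, and Ly86, a partner of the receptor CD180 on B and myeloid cells, with log2 values in cKO of -0.51, -0.42 and -0.55.

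One of these 8 rested on a single library. Thy1 encodes a surface glycoprotein carried by mouse T cells. Its peak (chr9:44046559-44047496) stood at 4.41, 4.90 and 6.04 CPM in WT Dex libraries, against 9.01, 22.0 and 6.26 CPM in WT control libraries. It stood at 4.15, 4.90 and 4.38 CPM in cKO Dex libraries, against 5.25, 4.55 and 4.60 CPM in cKO control libraries. WT control replicate 2 alone was far above the other libraries.

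The 8 strongest weakened peaks stood at 20.05 to 28.6 CPM in WT control. The strongest lay within Nebl (chr2:17390541-17391826), whose product nebulette binds actin in muscle. It stood at 17.4, 20.5 and 18.1 CPM in WT Dex libraries, against 27.9, 28.0 and 30.0 CPM in WT control libraries. It stood at 29.1, 30.0 and 24.5 CPM in cKO Dex libraries, against 23.5, 31.0 and 24.2 CPM in cKO control libraries, with full overlap and a log2 of 0.14 ± 0.12. The peak within Ano10, an anoctamin family membrane protein (chr9:122286000-122286692), stood at 16.0, 15.7 and 18.1 CPM in WT Dex libraries, against 26.2, 23.7 and 27.5 CPM in WT control libraries. It stood at 23.3, 22.8 and 24.4 CPM in cKO Dex libraries, against 23.8, 26.4 and 23.0 CPM in cKO control libraries, with a log2 of -0.01 ± 0.11.

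Pparg encodes a nuclear receptor of lipid metabolism. A peak 22826 bases outside the gene (chr6:115512825-115513636) stood at 15.4, 14.8 and 15.2 CPM in WT Dex libraries, against 22.0, 22.8 and 23.5 CPM in WT control libraries, with little spread in either group. It stood at 22.4, 24.5 and 20.6 CPM in cKO Dex libraries, against 21.8, 25.2 and 27.03 CPM in cKO control libraries. The cKO groups overlapped, at a log2 of -0.07 ± 0.12. The peaks at Abr, a regulator of small GTPases, Msi2, an RNA-binding protein, Cnot4, a ubiquitin ligase of the CCR4-NOT complex, and a site on chromosome 5 with no gene within 50 kb had log2 values in cKO between -0.11 and -0.01. The peak 29592 bases outside Antxr2, a receptor for anthrax toxin (chr5:98060220-98060998), was the exception among the 8. It stood at 14.9, 13.8 and 15.4 CPM in cKO Dex libraries, against 25.6, 16.4 and 15.9 CPM in cKO control libraries. The groups did not overlap, but cKO control replicate 1 stood apart, and the log2 was -0.34 ± 0.13 (unadjusted p 0.0152 in edgeR).

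**Figure D4:**
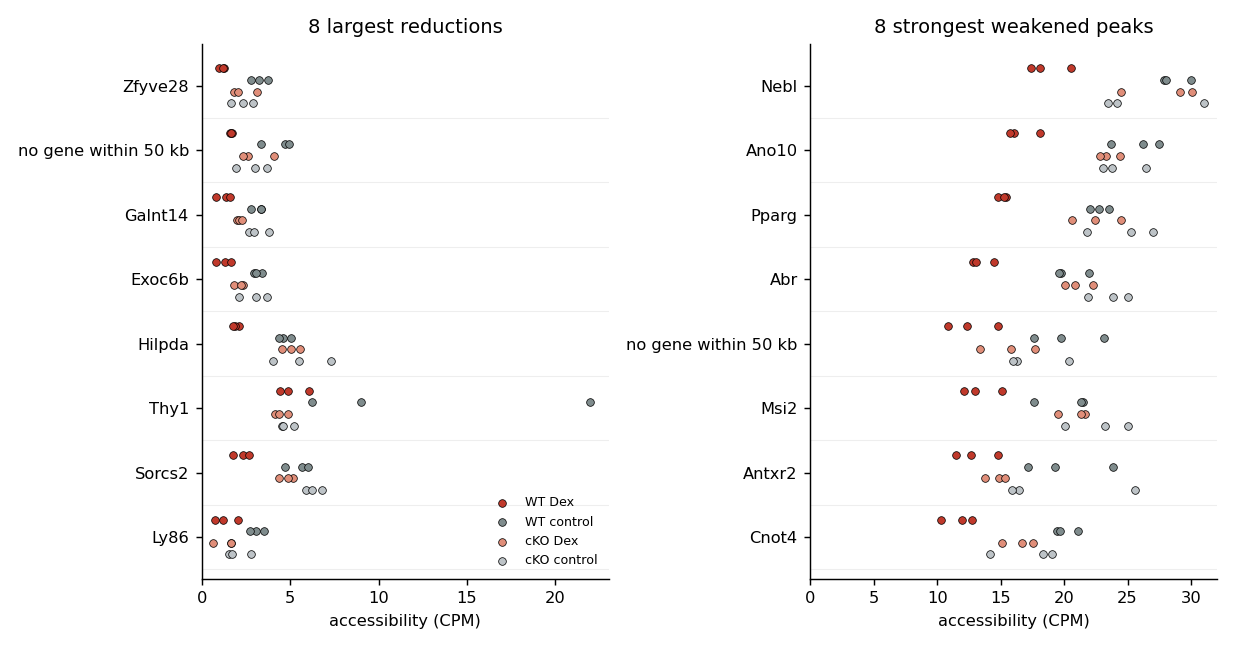
Accessibility in CPM of every library at the 8 weakened peaks with the lowest WT ratio (left) and the 8 strongest (right), by the gene assigned; red WT Dex, dark grey WT control, light red cKO Dex, light grey cKO control. At Nebl the cKO Dex points (24.5 to 30.0 CPM) lie over the cKO control points (23.5 to 31.0 CPM), and at Thy1 1 WT control library stands at 22.0 CPM.

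The 20 gene lists held 391 genes and 2788 peaks past 3 CPM, of which 44 (1.58%) were weakened, against 2.02% of all peaks past the minimum. Those 44 peaks were spread over 36 genes. No list held more than 7. In cKO none of the peaks named below was called by edgeR.

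Of the Th17 list 7 of 239 peaks were weakened (2.93%), on the transcription factor genes Bhlhe40, which supports inflammatory cytokine output, and Rora, which encodes ROR-alpha, with 3 peaks each, and on Il23r. Among the 7 the median log2 in cKO was 0.03, and 3 were negative. The strongest of the Bhlhe40 peaks lay 19906 bases outside the gene (chr6:108685832-108687830). It stood at 5.51, 7.48 and 7.70 CPM in WT Dex libraries, against 13.9, 11.4 and 12.97 CPM in WT control libraries. It stood at 11.7, 11.0 and 11.6 CPM in cKO Dex libraries, against 10.6, 14.0 and 13.4 CPM in cKO control libraries, so the cKO groups overlapped (log2 -0.10 ± 0.14). The other 2 Bhlhe40 peaks lay 13406 and 26258 bases outside the gene, with log2 values in cKO of 0.03 and -0.01. The peak within Il23r (chr6:67424822-67425346) stood at 5.46, 5.52 and 5.70 CPM in WT Dex libraries, against 9.55, 8.99 and 10.1 CPM in WT control libraries. It stood at 11.5, 10.2 and 9.20 CPM in cKO Dex libraries, against 9.79, 9.93 and 9.73 CPM in cKO control libraries, with a log2 of 0.13 ± 0.14. The 3 weakened peaks within Rora were 3 of the 53 peaks past the minimum assigned to that gene.

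Of the AP-1 and activation list 5 of 217 peaks were weakened (2.304%), at Fos, Jun and Fosl2, which encode subunits of AP-1, and at Nfatc1 and Nfatc2, calcium-activated transcription factors of T cell receptor signalling. In cKO 3 of the 5 were negative. The peak 5850 bases outside Fosl2 (chr5:32163380-32164001) stood at 4.93, 5.73 and 4.68 CPM in WT Dex libraries, against 7.93, 9.79 and 10.2 CPM in WT control libraries. It stood at 7.66, 10.4 and 8.41 CPM in cKO Dex libraries, against 6.27, 9.51 and 12.6 CPM in cKO control libraries, a wide overlap. The peak within Jun (chr4:95049161-95049544) stood at 1.28, 1.75 and 1.597 CPM in WT Dex libraries, against 3.46, 3.69 and 3.13 CPM in WT control libraries. At Jun the cKO libraries were low in both groups, at 1.79, 1.99 and 1.51 CPM with Dex, against 2.24, 1.93 and 1.76 CPM in control. Of the NF-kB and inflammatory list 1 of 143 peaks was weakened (0.699%), 2411 bases outside Il1b, the gene of the inflammatory cytokine IL-1 beta, with a log2 in cKO of 0.06 ± 0.23.

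Of the cytokine receptor and STAT list 4 of 239 peaks were weakened (1.67%): 2 at Il21r, the receptor for IL-21, and 1 each at Stat5b, which relays IL-2 signals, and Ifnar1, a chain of the type I interferon receptor. The stronger Il21r peak (chr7:125597153-125597580) stood at 5.40, 7.22 and 6.22 CPM in WT Dex libraries, against 9.24, 9.51 and 11.0 CPM in WT control libraries. It stood at 10.3, 10.1 and 7.68 CPM in cKO Dex libraries, against 7.68, 6.79 and 8.65 CPM in cKO control libraries, which overlapped (log2 0.35 ± 0.16). The co-inhibitory list held 1 weakened peak of 116, 43177 bases outside Btla, an inhibitory receptor of lymphocytes, at a log2 in cKO of 0.55 ± 0.28.

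Of the lipid list 5 of 140 peaks were weakened (3.57%), the highest share of the 20 lists: among them were 2 at Ppard, a fatty acid sensing nuclear receptor, and 1 each at Pparg and Cysltr2, a receptor for cysteinyl leukotrienes. All 5 were below zero in cKO, against 55.2% of all weakened peaks. Their median log2 was -0.07, against 0.08 for the list's peaks past the minimum. The peak at Cysltr2 and the Ppard peak within its gene were so near zero (-0.0036 ± 0.16 and -0.0043 ± 0.23) that their sign carries little. The Cysltr2 peak (chr14:73056142-73056704) stood at 3.83, 3.61 and 3.76 CPM in WT Dex libraries, against 8.16, 6.76 and 7.97 CPM in WT control libraries. It stood at 6.94, 7.90 and 7.07 CPM in cKO Dex libraries, against 8.07, 7.06 and 7.77 CPM in cKO control libraries, with overlap and a log2 of -0.00 ± 0.16. Of the hypoxia and glycolysis list 2 of 190 peaks were weakened (1.05%), at Hilpda and at Car12, a carbonic anhydrase. The Car12 peak, 45209 bases outside the gene, stood at 2.55, 2.79 and 3.02 CPM in WT Dex libraries, against 6.24, 6.43 and 5.41 CPM in WT control libraries. It stood at 5.50, 6.44 and 6.51 CPM in cKO Dex libraries, against 6.40, 7.37 and 7.43 CPM in cKO control libraries, with a narrow overlap.

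Of the chromatin regulator list 6 of 273 peaks were weakened (2.20%), all within their genes: among them were 2 in Chd7, a chromatin remodeller, and 1 each in Kat6b, a histone acetyltransferase, Hdac4, a histone deacetylase, and Dnmt1, the maintenance DNA methyltransferase. The Kat6b peak (chr14:21540390-21540910) stood at 3.13, 3.97 and 3.93 CPM in WT Dex libraries, against 6.62, 7.81 and 7.32 CPM in WT control libraries. It stood at 6.74, 7.02 and 7.91 CPM in cKO Dex libraries, against 7.62, 9.09 and 8.79 CPM in cKO control libraries, with overlap and a log2 of -0.19 ± 0.16. Of the cytoskeleton list 4 of 245 were weakened (1.63%), at Dock2 (2 peaks) and Dock8, which activate Rac and Cdc42 in migrating lymphocytes, and at Capzb, which caps actin filaments. The Capzb peak (chr4:139213779-139214884) stood at 7.72, 8.20 and 8.27 CPM in WT Dex libraries, against 14.9, 15.6 and 13.3 CPM in WT control libraries. It stood at 12.4, 10.6 and 12.003 CPM in cKO Dex libraries, against 10.5, 14.4 and 10.7 CPM in cKO control libraries, with a log2 of 0.02 ± 0.14.

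Of 157 peaks at known glucocorticoid receptor target genes 1 was weakened (0.637%), within Tle1, a corepressor. The naive and memory list held 3 of 369 (0.813%), among them peaks at Foxo1, a transcription factor of quiescence, and Bach2, a repressor of effector genes. The Th1, Th2 and Treg list held 2 of 134 (1.49%), near Rad50, whose gene contains the locus control region of the Th2 cytokines, and within Ikzf2, which encodes Helios. The apoptosis list held 1 of 142 (Bik, a pro-apoptotic BH3-only protein), the trafficking list 1 of 151 and the clock list 3 of 99 (Bhlhe40). None of 58 peaks at ubiquitously used genes was weakened.

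Lists of other cell types were read the same way. The B cell list held 1 weakened peak of 30, 2901 bases outside Ebf1, which specifies B cells. Summed over all peaks assigned to the 12 genes, the B cell list stood at 420 to 436 CPM in WT Dex libraries, against 462 to 477 CPM in WT control libraries, and at 458 to 482 CPM in cKO Dex libraries, against 484 to 491 CPM in cKO control libraries. The groups did not overlap in either genotype, although by little in cKO, and these sums are on the scale of library totals alone. The Th17 genes summed to 1239 to 1263 CPM in WT Dex libraries, against 1327 to 1346 CPM in WT control libraries, with no overlap either. In cKO the Th17 sums overlapped, at 1360 to 1442 CPM with Dex, against 1344 to 1470 CPM in control. The T cell genes summed to 1577 to 1614 CPM in WT Dex libraries, against 1579 to 1694 CPM in WT control libraries, which overlapped. Their sums in cKO overlapped too, at 1626 to 1636 CPM with Dex, against 1633 to 1661 CPM in control. Of the 9 B cell genes with a promoter window 8 had no promoter peak of 3 CPM, as had 3 of the 5 Th17 genes with a window. The part of other cells in the weakened peaks was not tested. The myeloid and dendritic list held 1 of 49 (Zbtb46, a transcription factor of dendritic cells), and the CD8 T and NK list (27 peaks) and the erythroid and stromal list (29 peaks) held 0. The myeloid list summed to 668 to 700 CPM in WT Dex libraries, against 696 to 713 CPM in WT control libraries, which overlapped. Its sums in cKO, 695 to 734 CPM with Dex, against 723 to 748 CPM in control, also overlapped.

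**Figure D5:**
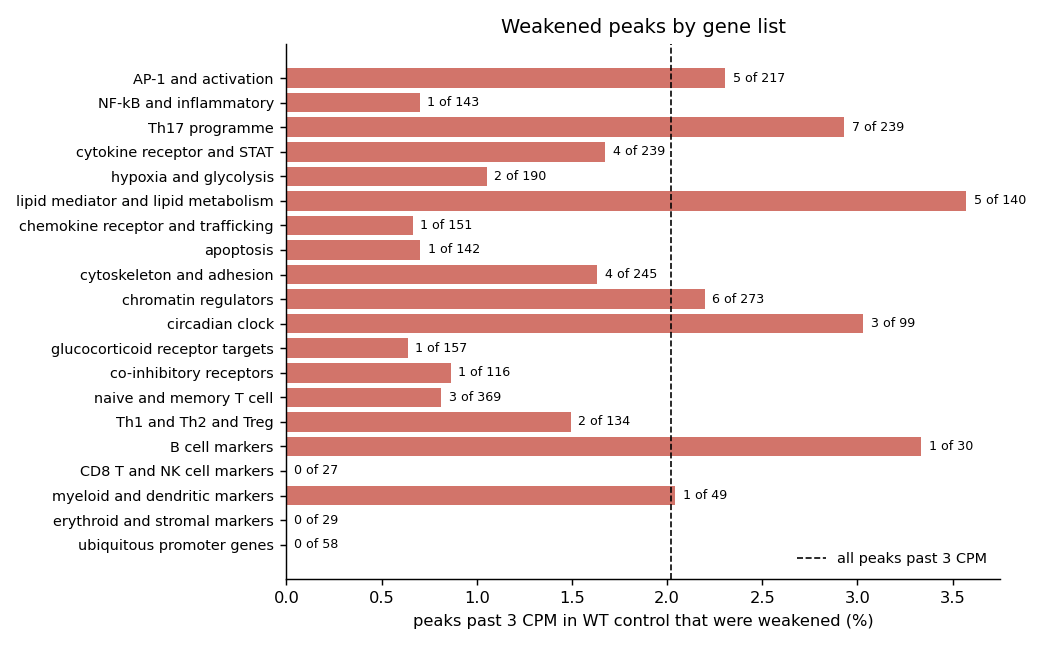
Share of each gene list's peaks past 3 CPM in WT control that were weakened, in percent, with the number weakened and the number of peaks beside each bar; the dashed line is the share of all peaks past the minimum, 2.02%. The lipid list stands at 3.57% (5 of 140) and the receptor target list at 0.637% (1 of 157).

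The genes with the most weakened peaks were Galnt14 (5 of 14 peaks past the minimum), Zfyve28 (5 of 13), Nmnat3, which makes NAD in mitochondria (4 of 8), Mgll, a lipase that degrades the endocannabinoid 2-arachidonoylglycerol (4 of 27), and Snx29, a sorting nexin (4 of 29). Tnrc6b, a partner of Argonaute in miRNA silencing, also had 4, of 32 peaks. In cKO the 5 peaks of Galnt14 ranged from -0.51 to 0.06 on the log2 scale and the 5 of Zfyve28 from -0.14 to 0.28. Peaks of one gene share their locus. Of the pair of adjacent Galnt14 peaks, chr17:73513507-73514474 and chr17:73514854-73515999, the first stood at 7.81, 7.15 and 5.50 CPM in cKO Dex libraries, against 10.2, 8.73 and 8.25 CPM in cKO control libraries, and the second at 6.78, 6.07 and 5.22 CPM, against 7.55, 6.90 and 7.03 CPM. At neither site did the cKO groups overlap (log2 -0.34 ± 0.16 and -0.18 ± 0.17). Nor did they at the Galnt14 peak chr17:73584985-73585325, while at chr17:73456483-73456939 and chr17:73495899-73496682 they overlapped. All cKO Dex libraries lay below all cKO control libraries at 9.48% of the weakened peaks. The share was 6.57% of all tested peaks and 3.76% of the other peaks past 3 CPM.

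Among the 437 weakened peaks with a mean of at least 5 CPM in a cKO group, the lowest log2 values in cKO were at Dnajb8, an Hsp40 family chaperone (-0.52 ± 0.19), Noxa1, an activator of NADPH oxidase (-0.50 ± 0.17), Bace2, an aspartyl protease (-0.47 ± 0.20), D430042O09Rik (-0.46 ± 0.20) and Pdia5, a disulfide isomerase (-0.45 ± 0.20). The Noxa1 peak (chr2:25108894-25110530) stood at 5.18, 6.07 and 7.52 CPM in cKO Dex libraries, against 11.5, 8.00 and 7.98 CPM in cKO control libraries. The groups did not overlap, and the unadjusted p was 0.00462 in edgeR. It stood at 5.86, 5.88 and 8.04 CPM in WT Dex libraries, against 14.1, 9.08 and 8.42 CPM in WT control libraries. The highest values were at Pde4d, a cyclic AMP phosphodiesterase (0.49 ± 0.21), Dppa1 (0.36 ± 0.19), Foxred2, a flavoprotein of endoplasmic reticulum protein degradation (0.36 ± 0.18), Il21r (0.35 ± 0.16) and Os9, a lectin of the same pathway (0.32 ± 0.19). The Pde4d peak (chr13:109915507-109916371) stood at 7.89, 9.47 and 6.23 CPM in cKO Dex libraries, against 5.57, 6.53 and 5.41 CPM in cKO control libraries, which overlapped. These 10 were picked as extremes of the cKO values, and none passed the adjusted threshold.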

How the data were processed

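The authors deposited raw counts for 222105 peaks, 1 shared set for all libraries, with no normalisation. The submitters' processing notes name build mm10, the peak caller Genrich 0.6.1 and the counter featureCounts 2.1.1 beside Bowtie2 2.3.5, Trimmomatic 0.39, SAMtools 1.3, Picard 2.18.27 and deepTools 3.5.6. Not stated in the sources used here are their settings, any Tn5 shift of the reads, whether samples were pooled for peak calling and whether peak starts count from 0 or 1. Libraries were amplified for 16 PCR cycles, so reads are not independent molecules.

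Groups were taken from each sample's labels. CPM was the count over the library total. Peaks were filtered with filterByExpr (minimum count 10, minimum total 15), scaled by TMM and fitted in edgeR 4.0.16 (R 4.3.3) with robust quasi-likelihood, all 12 libraries, 1 coefficient per group and 8 residual degrees of freedom. P-values were two-sided, with Benjamini-Hochberg adjustment over 202587 peaks. The SE was the absolute log2 over the square root of the F statistic. The spread of each peak was estimated over all 12 libraries. The WT libraries, which chose the peaks, therefore entered the SE and p-values in cKO too. Genes and promoter windows came from RefSeq on GRCm38.p6, the same build. The steps were tested on simulated data. DESeq2 1.42.0, other scalings, filters, rule limits, a replicate block and left-out libraries were alternatives.

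The weakened peaks and the gene lists were chosen with earlier results of these data known. Named are the 8 peaks with the lowest WT ratio, the 8 strongest, the strongest of each list, any peak called in cKO (there was none), the 5 lowest and 5 highest log2 values in cKO among peaks of at least 5 CPM there, the 5 genes with most weakened peaks and the peaks at the thresholds. Other weakened peaks of the gene lists, promoter peaks whose sequence is shown and the peaks weakened in both genotypes were named beside these. A few peaks that this rule names are not reported here.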

Additional observations from a re-analysis of the deposited data

Results flagged for a closer look

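At a peak within Rora (chr9:68993742-68994306) every cKO Dex library lay above every cKO control library, while every WT Dex library lay below every WT control library. It stood at 3.15, 3.32 and 4.38 CPM in cKO Dex libraries, against 2.11, 3.14 and 1.62 CPM in cKO control libraries. With the receptor intact it reached 1.80, 1.50 and 2.34 CPM in WT Dex libraries, against 2.62, 3.31 and 3.70 CPM in WT control libraries. The log2 for Dex in cKO was 0.669 ± 0.248 (SE, n = 3 each; edgeR unadjusted p 0.00899, adjusted p 0.838). The other 2 weakened peaks within Rora had overlapping cKO groups, with log2 values of -0.09 and 0.03.

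The same opposite order held at a peak 1843 bases outside Foxred2 (chr15:77938415-77938943). It stood at 8.21, 8.14 and 7.63 CPM in cKO Dex libraries, against 6.08, 7.47 and 5.81 CPM in cKO control libraries. With the receptor intact it reached 3.37, 6.24 and 3.88 CPM in WT Dex libraries, against 6.47, 6.81 and 8.05 CPM in WT control libraries. The log2 for Dex in cKO was 0.356 ± 0.177 (edgeR adjusted p 0.855).

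At both sites the difference between the genotypes was not tested, because the WT values chose the peaks. Among all 1182 weakened peaks 34 had every cKO Dex library above every cKO control library (2.88%). The share was 4.29% of all tested peaks and 7.56% of the other peaks past 3 CPM.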

How the results depend on the processing

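For Dex in cKO the number of peaks called over the whole table was 6. It was 10 with DESeq2, 3 in a fit of the cKO libraries alone and 5 to 6 under the other scalings and filters, and 1 to 314 with 1 cKO library left out. The 314 came without cKO Dex replicate 3, and without cKO control replicate 1 there was 1. No weakened peak was called under any of these alternatives, nor was any of the 91 peaks named.

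The median log2 of the weakened peaks in cKO (-0.03) turned positive without cKO control replicate 2 (0.00) and without cKO Dex replicate 3 (0.031). The median of all peaks past 3 CPM was 0.113 and 0.146 in those fits, a difference of -0.108 and -0.115 for the weakened peaks, against -0.104 over all libraries. Over all left-out libraries the median of the weakened peaks ran from -0.055 to 0.031. It was -0.08 with library totals, which also moved the median of all tested peaks to -0.06, and -0.07 with loess offsets. The share below zero (55.2%) ran from 43.5% to 58.8% with a library left out and was 80.0% for the 45 peaks under a ratio limit of 0.5. It was 43.5%, against 20.3% of all peaks past 3 CPM, without cKO Dex replicate 3, 49.2%, against 25.6%, without cKO control replicate 2, and 58.8%, against 40.1%, without cKO Dex replicate 2. With library totals it was 65.0%, against 43.1% of all peaks past 3 CPM; with loess offsets 63.5%, against 49.3%; with a mean count of at least 30, 68.2%, against 48.0%.

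The number of weakened peaks, 1182, was 468 with a minimum of 5 CPM, 5212 with 1 CPM, 45 with a ratio limit of 0.5, 2730 with 0.75 and 849 with TMM scaling, of which 811 were shared. It was 1431 to 1844 with a WT library left out. The rule in cKO kept 256 peaks, 167 with TMM scaling and 311 to 1086 with a cKO library left out, the highest without cKO Dex replicate 3 and 919 without cKO control replicate 2. The alternatives for that count, for the promoter share and for the summed level were chosen after seeing the data. Of the 44 peaks on gene lists, 25 lay within the gene span and 36 within 10 kb. The summed difference in cKO ran from -6.28% to -4.61% with a library left out. The cause of these shifts was not tested.

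Whether the replicate numbers pair the samples was not settled. Same-numbered Dex and control libraries had correlations of their deviations of -0.00703, 0.153 and 0.0355 in cKO. In WT these were -0.0772, 0.0534 and -0.118. Not every sample correlated best with its own number, and so few libraries cannot decide the question. A fit with the replicate block called 6 peaks.

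Over the named peaks the SE of the log2 in cKO ran from 0.11 at Ano10 to 0.46 at Thy1, where 1 WT control library stood at 22.0 CPM.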
